A study of Mus musculus with 18 samples.

Results

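The 10 genes studied mark mast cells and basophils, and were followed in CD45+ Kaede red+ leukocytes of mice, 10 of the 49585 genes in the count table, and all 10 were found by mapping the Ensembl identifiers of the table to gene symbols. They were the chymases Cma1 and Mcpt4, the tryptases Tpsb2 and Tpsab1, the carboxypeptidase Cpa3, the basophil protease Mcpt8, the stem cell factor receptor Kit, the IgE receptor subunits Fcer1a and Ms4a2, and the histamine-forming enzyme Hdc. They were picked by name, as known markers, and not by a threshold on measured values. Kaede mice express a protein that light converts from green to red, so that a red cell found in a draining lymph node is taken to come from the illuminated tissue. The study also saw slightly more red cells in the node directly after the joint was illuminated, so some may have been converted there. The labels described the transfer of OT-II Th1 cells, immunisation with 100 µg OVA in complete Freund's adjuvant, and challenge of the footpad or the ear pinna with PBS or with 100 µg heat-aggregated ovalbumin (HAO). The 6 groups of 3 libraries, each from pooled mice, were compared. Red cells still in the HAO-challenged tissue were called joint nonmigrated and skin nonmigrated, and red cells in the draining node of that tissue joint migrated and skin migrated. Cells in nodes draining tissue without HAO challenge were called joint steady state, titled with PBS, and skin steady state, titled naive. The labels shared 1 protocol text and did not say whether naive mice had received the T cells or the immunisation, and the titles of the joint steady state carried the letters KG, which they did not explain. The source names call those cells migrated and the shared protocol names a sort of Kaede Red+ cells, but if KG stood for Kaede green, the unconverted protein, they would not be marked as having left the joint. This could not be settled here, and every value against the joint steady state carries that limit. Replicates were pools, so p-values measured the spread between pools.

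Mast cells live in tissues and mature under stem cell factor, the ligand of KIT. Basophils circulate in blood and enter inflamed tissue. Both carry the high-affinity IgE receptor, whose alpha chain (Fcer1a) binds IgE and whose beta chain (Ms4a2) amplifies the signal, and both store histamine. Mast cell granules also hold chymases, tryptases and carboxypeptidase A3. In mice, Mcpt4 and Cma1 are proteases of connective tissue mast cells, Mcpt1 and Mcpt2 of mucosal mast cells, and Mcpt8 and Prss34 of basophils. Not every gene of the set belongs to these cells alone, since Kit also marks progenitors and some dendritic cells, and Hdc is also made by neutrophils and immature myeloid cells.

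In the mm10 build used by the files and the GENCODE M21 gene models, the chymases and Mcpt8 lay in 1 cluster on chromosome 14, minus strand: Cma1 (ENSMUSG00000022225) at chr14:55941451-55944675, Mcpt4 (ENSMUSG00000061068) at chr14:56059629-56062313 and Mcpt8 (ENSMUSG00000022157) at chr14:56082166-56085273. Both tryptases lay on chromosome 17, Tpsb2 (ENSMUSG00000033825) at chr17:25366305-25369098 on the plus and Tpsab1 (ENSMUSG00000024173) at chr17:25343245-25345562 on the minus strand. The others lay apart, with Cpa3 (ENSMUSG00000001865) at chr3:20215620-20242181, Fcer1a (ENSMUSG00000005339) at chr1:173221284-173227214, Ms4a2 (ENSMUSG00000024680) at chr19:11615523-11623719 and Hdc (ENSMUSG00000027360) at chr2:126593667-126619299 on the minus strand and Kit (ENSMUSG00000005672) at chr5:75574916-75656722 on the plus strand.

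The promoters of 3 mast cell proteases are shown because the levels of these genes moved together. The factor GATA2, which binds GATA motifs, acts in both cell types, and its part in these levels was not tested. The RefSeq promoter table (GRCm38.p6) held 8 of the 10 genes and lacked Tpsb2 and Tpsab1. The motif GATAA, or TTATC on the other strand, occurred in the 250 bases upstream of the start in 5 of these 8 genes (Cma1, Mcpt4, Cpa3, Fcer1a and Ms4a2), and in 22.6% of all 32851 promoters in the table. Neither string was in that window of Mcpt8, Kit or Hdc. In the sequences, all read from the minus strand 5′ to 3′, the capitals mark the motif, which began at base -194 in Cma1, -102 in Mcpt4 and -45 in Cpa3 relative to the start.
Cma1, chr14:55944676-55944925: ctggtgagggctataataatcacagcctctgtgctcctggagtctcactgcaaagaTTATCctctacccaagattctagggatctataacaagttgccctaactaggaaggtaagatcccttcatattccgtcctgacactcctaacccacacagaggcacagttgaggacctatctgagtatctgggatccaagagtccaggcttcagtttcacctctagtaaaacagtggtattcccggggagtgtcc
Mcpt4, chr14:56062311-56062560: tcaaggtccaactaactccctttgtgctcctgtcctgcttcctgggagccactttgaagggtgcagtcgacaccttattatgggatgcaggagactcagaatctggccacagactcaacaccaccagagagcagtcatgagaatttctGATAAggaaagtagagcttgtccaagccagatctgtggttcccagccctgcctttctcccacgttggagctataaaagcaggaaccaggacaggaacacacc
Cpa3, chr3:20242182-20242431: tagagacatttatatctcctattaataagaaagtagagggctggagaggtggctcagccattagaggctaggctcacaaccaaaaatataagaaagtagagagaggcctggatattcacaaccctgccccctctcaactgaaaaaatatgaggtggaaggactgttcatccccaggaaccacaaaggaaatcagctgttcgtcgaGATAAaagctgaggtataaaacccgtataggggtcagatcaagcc

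Libraries held 19239531 to 43814403 counts in genes. The inflamed skin libraries, nonmigrated and migrated, held at most 22528895, and every joint library held at least 35554698. In the inflamed groups, site and depth therefore cannot be told apart, and skin steady-state libraries held 28577566 to 40055171. A level is given in CPM, the counts scaled to a common library total with TMM factors, and 3 counts, taken as the lowest countable level, stood for 0.0685 to 0.156 CPM before that scaling. A gene was called changed at an adjusted p under 0.001 and a log2 fold change beyond 1 in edgeR's quasi-likelihood test. In bulk RNA, fewer cells of a type and less RNA per cell cannot be told apart.

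Different patterns appeared across the 6 groups. The 5 mast cell proteases had their highest mean in joint nonmigrated cells and were also high in joint migrated cells, yet low in skin migrated cells and at steady state. Mcpt8 and Hdc were instead highest in skin nonmigrated cells and low in the migrated cells of both sites. Kit stood at 15.7 to 46.7 CPM in the inflamed libraries, lower in skin migrated than in skin nonmigrated cells, and was low at steady state.

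**Figure D1:**
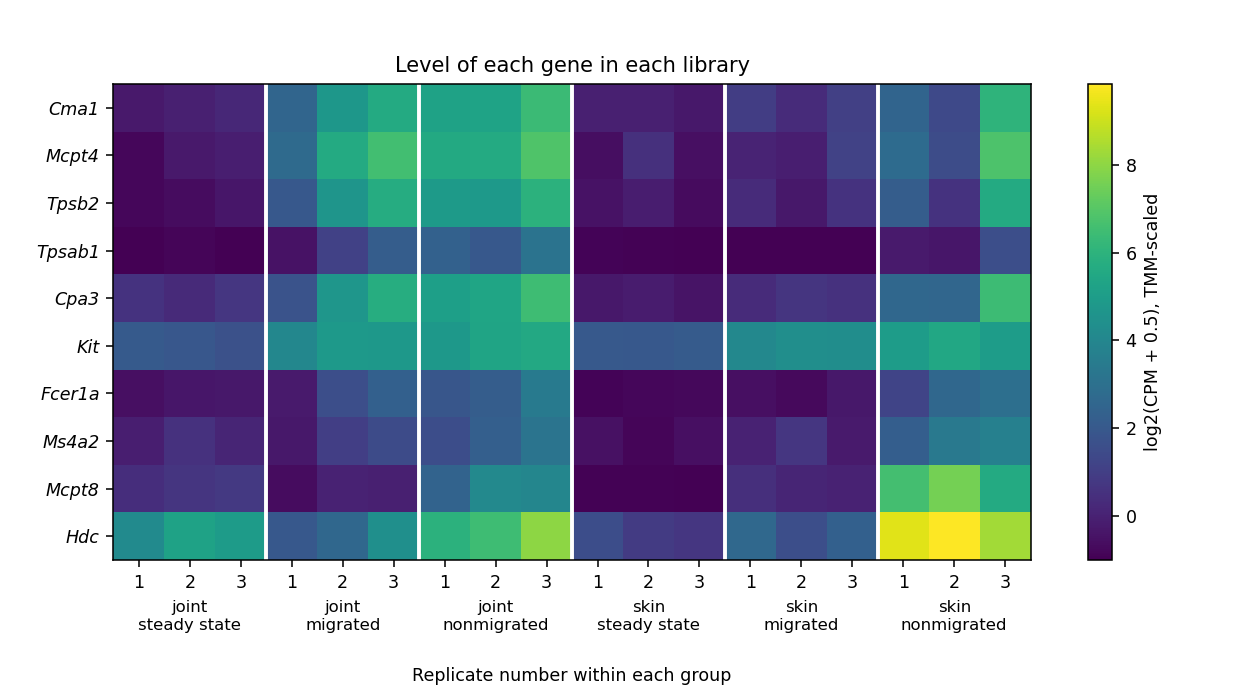
Heat map of the 10 genes (rows) in the 18 libraries (columns, by group and replicate), coloured by log2(CPM + 0.5) after TMM scaling. The 5 protease rows at the top are bright in joint migrated replicates 2 and 3, all joint nonmigrated libraries and skin nonmigrated replicate 3, while Mcpt8 and Hdc are brightest in the skin nonmigrated libraries.

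Mcpt4, a chymase of the mast cell granule, stood at 47.6, 49.3 and 114 CPM in joint nonmigrated replicates 1, 2 and 3, and at 6.16, 48.2 and 93.4 CPM in joint migrated replicates 1, 2 and 3. In skin it stood at 6.36, 2.40 and 111 CPM in nonmigrated cells and at 0.558, 0.449 and 1.68 CPM in migrated cells. At steady state it did not exceed 0.903 CPM in skin or 0.444 CPM in the joint. The joint migrated and nonmigrated libraries overlapped, and every joint migrated library lay above every skin migrated and every steady-state library.

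Cpa3, which trims peptides in the same granule, followed the same libraries. It stood at 34.5, 40.8 and 87.8 CPM in joint nonmigrated cells and at 2.87, 25.6 and 52.9 CPM in joint migrated cells. Skin nonmigrated libraries held 5.58, 5.55 and 84.7 CPM and skin migrated libraries 0.745, 1.10 and 0.975 CPM. Joint and skin steady state held 0.712 to 1.13 and 0.244 to 0.394 CPM.

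Cma1, the alpha chymase, stood at 37.3, 38.8 and 84.1 CPM in joint nonmigrated cells and at 5.38, 26.2 and 48.5 CPM in joint migrated cells. Tpsb2, the more abundant of both tryptases here per kilobase of exon, stood at 29.7, 28.5 and 62.5 CPM and at 3.51, 24.5 and 51.2 CPM in the same groups. Tpsab1 was lower, with 3.42 to 8.15 CPM in joint nonmigrated and 0.226 to 4.05 CPM in joint migrated cells, and had 0 counts in all 3 skin migrated libraries. Per kilobase of exon, the mean levels in joint nonmigrated cells were 63.4 CPM for Mcpt4, 49.0 for Cma1, 35.8 for Cpa3, 25.3 for Tpsb2 and 2.59 for Tpsab1. The 5 genes together held 154 to 356 CPM in joint nonmigrated, 18.1 to 250 CPM in joint migrated, 2.60 to 5.23 CPM in skin migrated, and 0.855 to 2.51 CPM in steady-state libraries.

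The libraries within a group did not agree in these genes. Among skin nonmigrated libraries, replicate 3 held 313 CPM of the 5 proteases against 21.5 and 11.3 CPM in replicates 1 and 2. The same library had the lowest summed keratinocyte markers (23.7 against 139 and 281 CPM), the highest fibroblast markers (181 against 48.5 and 52.2 CPM) and the highest eosinophil markers (32.5 against 9.41 and 6.37 CPM). Among joint migrated libraries, replicate 1 held 18.1 CPM against 126 and 250 CPM, and it also had the lowest summed dendritic cell markers of its group (946 against 1680 and 2210 CPM). The part of these other cells in the protease levels was not tested. The makeup of the sum also varied. Cma1 made up 19.4 to 29.6% of the protease counts in joint migrated and 23.6 to 24.3% in joint nonmigrated libraries, and Mcpt4 33.9 to 38.2% and 30.7 to 31.9%. In skin nonmigrated replicates 1, 2 and 3 Cpa3 made up 25.9, 49.0 and 27.1%, the second of these on a total of 194 counts.

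Mcpt8 had the opposite order of sites. It stood at 97.6, 192 and 48.5 CPM in skin nonmigrated cells and at 4.98, 16.9 and 15.0 CPM in joint nonmigrated cells, with no overlap. The skin mean was 113 ± 73.0 CPM (SD, n = 3). Migrated cells held 0.532 to 0.884 CPM in skin and 0.144 to 0.537 CPM in the joint. Joint steady-state libraries, at 0.823, 1.08 and 1.26 CPM, lay above every joint migrated library. Skin steady-state libraries held 1, 1 and 0 counts.

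Hdc, the only enzyme that makes histamine, was the most abundant gene of the set by count. It stood at 661, 915 and 319 CPM in skin nonmigrated cells and at 61.9, 88.9 and 253 CPM in joint nonmigrated cells, with means of 632 ± 299 and 135 ± 104 CPM (SD, n = 3). Skin migrated cells held 5.86, 2.55 and 4.56 CPM and joint migrated cells 3.43, 5.6 and 20.5 CPM. Joint steady-state cells held 17.8, 37.4 and 30.0 CPM, against 2.42, 1.34 and 1.16 CPM in skin steady-state cells. Across the 3 joint nonmigrated libraries, Hdc and the 6 summed neutrophil markers were both lowest in replicate 1 (4810 CPM for the markers) and highest in replicate 3 (15400 CPM). The summed proteases (154, 161 and 356 CPM) and the eosinophil, B cell, T cell and fibroblast markers rose in the same order. In joint steady state, Hdc was highest in replicate 2 and the neutrophil markers in replicate 3. In joint migrated cells, Hdc was lowest in replicate 1 and the neutrophil markers in replicate 2. The 6 neutrophil markers summed to 363 to 746 CPM in joint steady state and 7.85 to 12.4 CPM in skin steady state. The 7 immature granulocyte markers summed to 130 to 211 and 1.76 to 3.18 CPM. In skin nonmigrated cells, where Hdc was highest, the neutrophil markers were lower (1150 to 1970 CPM) than in joint nonmigrated cells. Their part in the Hdc level was not tested.

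Fcer1a stood at 1.86, 5.67 and 7.22 CPM in skin nonmigrated and 3.28, 4.05 and 10.5 CPM in joint nonmigrated cells. It held 0.349, 2.52 and 4.57 CPM in joint migrated cells and 0.0999 to 0.310 CPM in skin migrated cells, which did not overlap. Ms4a2, the beta chain, had 4.20, 9.82 and 12.5 CPM in skin nonmigrated, 2.46, 4.42 and 8.63 CPM in joint nonmigrated, 0.308, 1.52 and 2.27 CPM in joint migrated and 0.354 to 1.15 CPM in skin migrated cells. Both subunits were under 1 CPM in all steady-state libraries.

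Kit varied least between libraries of a group. It stood at 31.4, 44.4 and 31.1 CPM in skin nonmigrated, 26.9, 39.7 and 46.7 CPM in joint nonmigrated, 16.4, 20.1 and 19.6 CPM in skin migrated and 15.7, 27.5 and 26.9 CPM in joint migrated cells. Steady-state cells held 3.50 to 3.82 CPM in skin and 2.77 to 3.71 CPM in the joint. The inflamed groups thus lay above the steady state without overlap. Melanocytes also express Kit. Their markers Pmel, Dct, Tyr, Tyrp1 and Mlana summed to 1.29 to 4.84 CPM in the inflamed and to 6.28 to 13.7 CPM in the steady-state libraries, with 3 of the 5 at 0 in every joint library of each group, so that the sum rests mainly on Pmel. Their part in the Kit level was not tested.

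**Figure D2:**
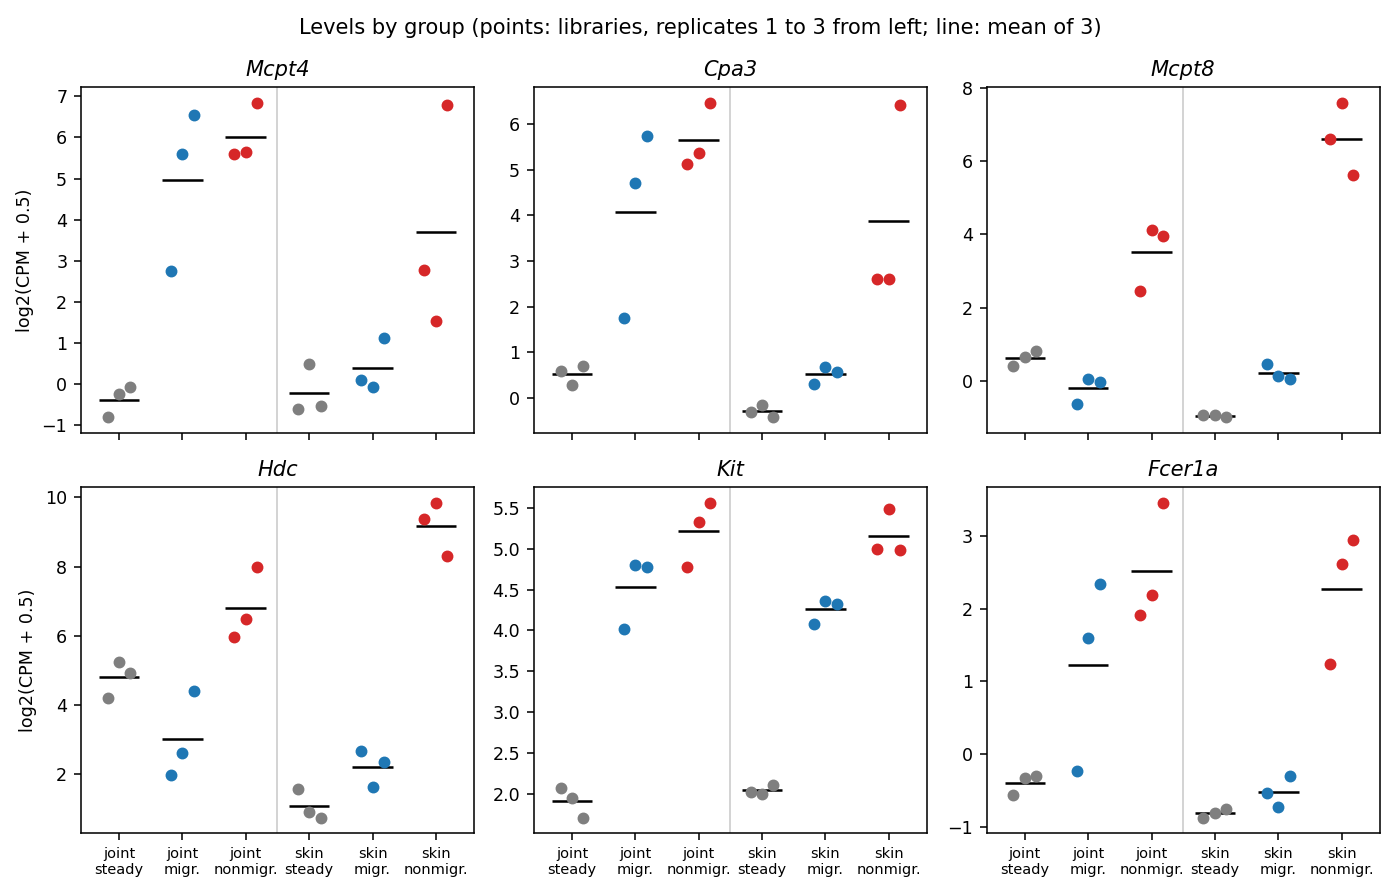
Levels of 6 genes as log2(CPM + 0.5), with 1 point per library (replicates 1 to 3 from left to right), a line at the mean of the 3 log2 values, and joint groups left and skin groups right of the grey line. Mcpt4 and Cpa3 are high in joint migrated and low in skin migrated cells, Mcpt8 and Hdc peak in skin nonmigrated cells, and Kit splits inflamed from steady-state cells.

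Migrated and nonmigrated cells of the joint were compared to ask which genes of the set stayed behind. Mcpt8 fell in migrated cells by 5.0 on the log2 scale (SE 0.66, adjusted p = 6.99e-05), a 32.0-fold difference. It was the only one of the 10 genes that was called, and 12.6% of the 16777 genes tested were called lower. Hdc stood 3.77 lower on the log2 scale (SE 0.74, adjusted p = 0.00113), just outside the threshold, and its groups did not overlap. Hdc was called as well with DESeq2's Wald test, and with edgeR when joint migrated replicate 3 was left out (log2 difference -4.87). Ms4a2 was 1.92 lower (SE 0.68, adjusted p = 0.0313). The 5 mast cell proteases differed by -0.51 (Mcpt4, SE 1.12) to -1.46 (Tpsab1, SE 0.92), with adjusted p from 0.208 to 0.725. The libraries of the groups overlapped, and the large errors do not show that the levels were equal. The Mcpt4 difference became 0.03 when joint migrated replicate 1 was left out. At an adjusted p under 0.05 the lower calls were Mcpt8, Hdc and Ms4a2, 3 of 10, against 18.4% of all genes. The median difference of the 10 genes was -1.13, and that of all genes tested 0.018.

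The same comparison in skin gave larger differences. Mcpt8 fell by 7.39 (SE 0.71, adjusted p = 7.04e-06) and Hdc by 7.19 (SE 0.88, adjusted p = 3.88e-05) on the log2 scale in migrated cells. These 2 of 10 genes were called, against 12.4% of all genes called lower. Fcer1a was 4.59 lower (SE 0.99, adjusted p = 0.00205) and Ms4a2 3.73 lower (SE 0.77, adjusted p = 0.00154). Cma1, Mcpt4, Tpsb2 and Cpa3 were 4.29 to 5.45 lower on the log2 scale (SE 1.24 to 1.5, adjusted p 0.00629 to 0.0132), and their errors carried the spread of the skin nonmigrated libraries. Tpsab1 was at least 24.2-fold lower in pooled counts, with 60 counts in the skin nonmigrated libraries and 0 in the migrated libraries, taking 3 counts over the group as the floor. Skin nonmigrated replicates 1, 2 and 3 held 6, 5 and 49 of these counts, so the bound rests mainly on replicate 3. Kit was 0.93 lower (SE 0.25, adjusted p = 0.00798). At an adjusted p under 0.05, 9 of 10 genes were called lower, all but Kit, against 19.7% of all genes, and DESeq2's Wald test called the same 9 genes at 0.001, against 16.3% of all genes. In 9 of the 10 genes every migrated library lay below every nonmigrated library, the exception being Tpsb2, and 30.2% of all genes tested did so. In the joint, Mcpt8, Hdc and Ms4a2 did so, against 32.6% of all genes. Without skin nonmigrated replicate 3, the library with the most protease RNA, the Mcpt4 difference was -2.25 and the Cma1 difference -1.52 on the log2 scale. The median of the 10 genes was -4.88, and that of all genes tested 0.0093.

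**Figure D3:**
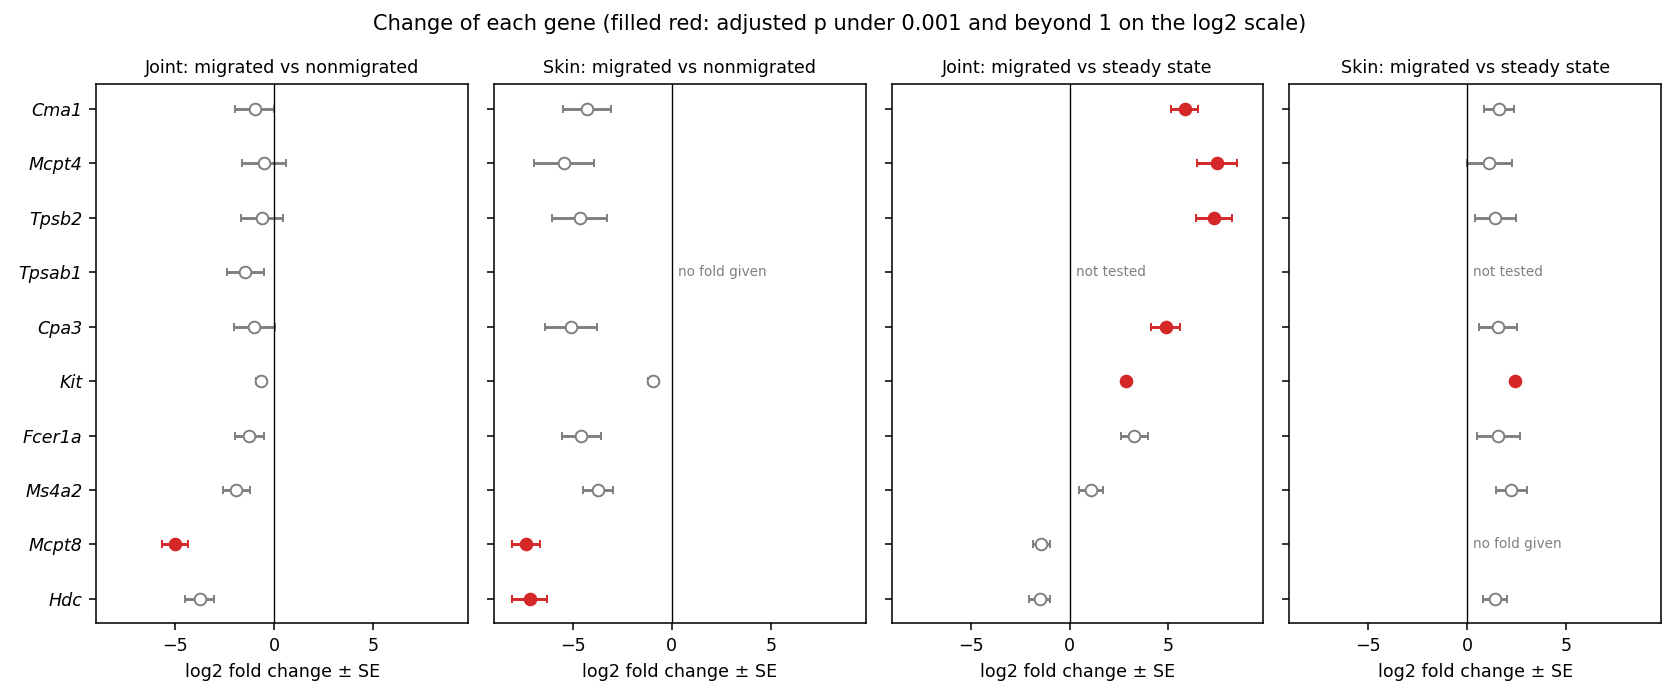
Log2 fold change (point) and its SE (bar) of the 10 genes in 4 comparisons from edgeR, with called genes in filled red and no point where a gene was not tested or a group had too few counts. In the joint the 5 proteases sit between -0.51 and -1.46 for migrated against nonmigrated cells, and the 4 that were tested sit between 4.86 and 7.45 for migrated against steady-state cells, while in skin the 4 with a point sit between -5.45 and -4.29 and between 1.12 and 1.61.

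Whether the migration difference itself depended on the site was tested as an interaction. None of the 10 genes was called, and 0.119% of all genes were. The lowest adjusted p was that of Hdc, whose joint difference was 3.42 higher on the log2 scale than its skin difference (SE 1.00, adjusted p = 0.0579). Fcer1a followed with 3.33 (SE 1.24, adjusted p = 0.118), Mcpt4 with 4.94 (SE 1.85, adjusted p = 0.120), Cpa3 with 4.08 (SE 1.64, adjusted p = 0.142) and Mcpt8 with 2.39 (SE 0.96, adjusted p = 0.143). At an unadjusted p under 0.05 there were 6 genes, against 26.3% of all genes, and DESeq2's Wald test called 0, against 3.94%. The larger skin differences were therefore not shown to differ from those of the joint.

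Cells that stayed in the joint and in skin were compared next. None of the 10 genes was called by edgeR's test, against 3.05% of all genes, with 3 at an unadjusted p under 0.05 (40.5% of all genes) and 1 called by DESeq2's Wald test (9.24% of all genes). That gene was Mcpt8, 3.20 lower in the joint on the log2 scale (SE 0.55, adjusted p = 0.00184), and it was called by edgeR when skin nonmigrated replicate 3 was left out. Hdc was 2.23 lower in the joint (SE 0.69, adjusted p = 0.0325). Tpsab1 was 2.32 higher in the joint (SE 1.00, adjusted p = 0.112), and its groups did not overlap. The other proteases overlapped because of skin nonmigrated replicate 3.

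In the nodes, 0 of the 10 genes were called between joint migrated and skin migrated cells, and 0% of all genes were, so this comparison yielded no call anywhere at the threshold used. At an unadjusted p under 0.05 there were 6, against 16.5% of all genes, and DESeq2's Wald test called 2 (Mcpt4 and Tpsab1), against 1.06% of all genes. The values were nevertheless far apart in the mast cell genes. On the log2 scale Mcpt4 was 5.75 higher in joint migrated cells (SE 1.51, adjusted p = 0.0855), Tpsb2 5.24 (SE 1.40, adjusted p = 0.0903), Cpa3 4.85 (SE 1.31, adjusted p = 0.0932), Cma1 4.41 (SE 1.23, adjusted p = 0.103) and Fcer1a 3.59 (SE 0.98, adjusted p = 0.0944). Tpsab1 was at least 41.7-fold higher in pooled counts, with 270 counts (11, 70 and 189 in replicates 1, 2 and 3) against 0 and 3 counts over the group as the floor. In these 6 of the 10 genes every joint migrated library lay above every skin migrated library, and 14.4% of all genes tested did so. Mcpt8 (-0.81, SE 0.81, adjusted p = 0.663), Kit (0.32, SE 0.25, adjusted p = 0.563), Ms4a2 (1.03, SE 0.75, adjusted p = 0.534) and Hdc (1.18, SE 0.72, adjusted p = 0.452) overlapped between the sites.

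Against the steady state, mast cell proteases were higher in joint migrated cells. Of the 9 genes tested, 5 were called higher, against 12.4% of all 17107 genes tested, and 0 lower, against 3.50%. On the log2 scale Mcpt4 rose by 7.45 (SE 0.99, adjusted p = 3.45e-05), Tpsb2 by 7.30 (SE 0.91, adjusted p = 2.00e-05), Cma1 by 5.81 (SE 0.66, adjusted p = 9.14e-06), Cpa3 by 4.86 (SE 0.74, adjusted p = 0.000114) and Kit by 2.86 (SE 0.21, adjusted p = 1.39e-07). Cpa3 was no longer called when any 1 of the joint steady-state libraries was left out, or in the fit of all 18 libraries. Tpsab1 was below the count filter of this fit and had 270 counts in joint migrated against 2 in joint steady-state libraries, a ratio of 128 (95% interval 35.0 to 1060, counting error only). Fcer1a was 3.26 higher (SE 0.69, adjusted p = 0.00145), and was called when joint migrated replicate 1 was left out. Mcpt8 and Hdc differed the other way, by -1.43 (SE 0.43, adjusted p = 0.0138) and -1.5 (SE 0.52, adjusted p = 0.0293), with Mcpt8 lower in every migrated library. At an adjusted p under 0.05, 6 of the 9 genes were higher and these 2 lower, against 16.9% and 7.31% of all genes. In 6 of the 9 tested genes every joint migrated library lay above every joint steady-state library, and 28.1% of all genes tested did so. The same joint migrated libraries served here and in the comparison with nonmigrated cells.

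In skin, 2 of the 9 genes tested were called higher against the steady state, and 16.6% of all genes were. Kit rose by 2.40 (SE 0.20, adjusted p = 3.30e-07). Mcpt8 had 43 counts in skin migrated and 2 in skin steady-state libraries, a ratio of 40.4 (95% interval 10.5 to 345, counting error only), and was called at an adjusted p = 3.80e-05, a call that the fit of all 18 libraries lost. The mast cell proteases Cma1, Cpa3, Mcpt4 and Tpsb2 were 1.12 to 1.61 higher on the log2 scale, with adjusted p from 0.0690 to 0.396. Ms4a2 was 2.23 higher (adjusted p = 0.0243), Fcer1a 1.58 (adjusted p = 0.222) and Hdc 1.42 (adjusted p = 0.0523). At an adjusted p under 0.05 Ms4a2 joined the 2 called genes, and 3678 of 17107 genes were called higher. Every skin migrated library lay above every skin steady-state library in Kit, Mcpt8, Cma1, Cpa3, Fcer1a, Ms4a2 and Hdc. The share of all genes that did so was not computed.

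Between the steady states, Hdc was 4.09 higher on the log2 scale in the joint (SE 0.60, adjusted p = 0.000810), and Mcpt8 had 138 counts in the joint against 2 in skin, a ratio of 63.6 (95% interval 17.3 to 530, counting error only, adjusted p = 0.000138). These 2 of 9 genes were called, against 1.40% of all genes called higher. Hdc lost its call when any 1 of the 6 libraries was left out, Mcpt8 when any 1 of the skin libraries was, and both in the fit of all 18 libraries. Neutrophil markers were also higher in the joint steady state, as given above. Site cannot be told apart here from the kind of baseline, titled PBS in the joint and naive in skin.

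The difference between sites in the response to inflammation was tested as an interaction in the fit of the node libraries, a comparison added after the levels had been seen. The joint baseline was titled PBS and the skin baseline naive, so that site and kind of baseline cannot be told apart in it. Mcpt8 was called (log2 difference -6.55, joint minus skin, SE 0.85, adjusted p = 0.000451), with 0.889% of all genes called, and its size rests on the 2 counts of the skin steady state. It kept its call in 4 of 12 fits that left out 1 library, with the difference between -6.81 and -6.11. Mcpt4 (6.33, SE 1.54, adjusted p = 0.0212), Tpsb2 (5.87, SE 1.45, adjusted p = 0.0223), Cma1 (4.20, SE 0.99, adjusted p = 0.0178) and Hdc (-2.92, SE 0.80, adjusted p = 0.0349) were below 0.05 but not called. With Mcpt8 these were 5 of 9 genes, against 6.11% of all genes at that level.

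Other genes of the same cells were read from lists. Of 17 other mast cell genes, 15 were tested in the inflamed libraries. In the joint, 2 were called higher and 4 lower in migrated cells, where 8.80% and 12.6% of all genes were. Those that rose were Mcpt1 and Mcpt2, the mucosal mast cell proteases, named here after their values were seen. Mcpt1 held 1.85, 1.40 and 4.59 CPM in joint migrated cells, with 364 counts against 3 in joint nonmigrated cells, a ratio of 87.7 (95% interval 29.8 to 427, counting error only). Mcpt2 held 0.883, 5.0 and 9.0 CPM, with 677 counts against 1, a ratio of 490 (95% interval 87.6 to 19400). Mcpt1 had 0 counts in the joint steady state, which puts joint migrated cells at least 115-fold higher, and 2 counts in skin migrated cells. Mcpt4, of connective tissue mast cells, differed by -0.51 in the same comparison and did not pass the test.

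The 4 that fell in the joint were Mitf, a transcription factor of mast cells, melanocytes and macrophages (-5.04, SE 0.35, adjusted p = 8.51e-07), the prostaglandin D2 synthase Hpgds (-3.13, SE 0.30, adjusted p = 5.81e-06), the leukotriene C4 synthase Ltc4s (-2.54, SE 0.39, adjusted p = 0.000187) and the adenosine receptor Adora3 (-3.22, SE 0.40, adjusted p = 3.91e-05). In skin, 0 of 15 were called higher and 4 lower, where 8.49% and 12.4% of all genes were. The lower ones were Gata2 (-7.01, SE 0.78, adjusted p = 1.86e-05), Mitf (-4.23, SE 0.35, adjusted p = 2.20e-06), Hpgds (-3.44, SE 0.32, adjusted p = 5.19e-06) and Adora3 (-5.70, SE 0.44, adjusted p = 1.56e-06). Gata2 stood at 169, 306 and 73.9 CPM in skin nonmigrated and at 10.1, 11.5 and 20.6 CPM in joint nonmigrated cells. In the same libraries the 5 proteases summed to 21.5, 11.3 and 313 CPM and to 154, 161 and 356 CPM.

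Of 7 other basophil genes, 1 rose and 1 fell in the joint, where 8.80% of all genes were called higher and 12.6% lower. The integrin Itga2, also on natural killer cells and T cells, rose by 2.63 (SE 0.32, adjusted p = 3.60e-05), and the basophil protease Prss34 fell by 6.25 (SE 0.84, adjusted p = 0.000175) from 11.2, 31.1 and 34.3 CPM in joint nonmigrated cells. In skin 3 fell, where 12.4% of all genes were called lower. Prss34 was at least 79.8-fold lower, with 198 counts against 0, the receptor Cd200r3 fell by 6.24 (SE 0.61, adjusted p = 7.76e-06), and Il4 by 3.48 (SE 0.54, adjusted p = 0.000212). The basophil genes did not share 1 order of sites in nonmigrated cells: Prss34 stood at 1.56, 6.37 and 3.27 CPM in skin, below the joint, whereas Cd200r3 was 3.73 lower (SE 0.51, adjusted p = 0.000517) and Il4 3.84 lower (SE 0.54, adjusted p = 0.000602) in the joint, as Mcpt8 was by value. Of the other mast cell genes, Ltc4s was 3.39 higher (SE 0.41, adjusted p = 0.000286) and Adora3 2.55 lower (SE 0.36, adjusted p = 0.000638) in joint nonmigrated cells.

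Against the joint steady state, 7 of 13 tested genes of the list of other mast cell genes were called higher, where 12.4% of all genes were. Il1rl1, the IL-33 receptor, rose by 2.40 (SE 0.21), Ltc4s by 6.43 (SE 0.46) and Rab27b, which acts in granule release, by 3.89 (SE 0.49), all at adjusted p between 1.43e-07 and 2.36e-05. The receptor gene Mrgprb1 had 242 counts against 3, a ratio of 76.4 (95% interval 25.8 to 373, counting error only). In skin migrated cells Il1rl1 rose by 2.89 (SE 0.22), Ltc4s by 6.94 (SE 0.48) and Rab27b by 3.85 (SE 0.49), and Hpgds fell by 2.26 (SE 0.27). These were the 3 called higher and the 1 called lower of 13 there. The 5 proteases summed to only 2.60 to 5.23 CPM in the skin migrated libraries. Which cells held Il1rl1, Ltc4s and Rab27b was not tested. Over all genes, 16.6% were called higher and 1455 of 17107 lower. Hpgds was 0.96 lower against the joint steady state (SE 0.24, adjusted p = 0.00506) and was not called. The basophil-list genes Il3ra, Itga2 and Ccr3 were called higher against steady state at both sites, with Il3ra up by 1.51 (SE 0.19) in the joint and 1.84 (SE 0.19) in skin. Mcpt8 and Prss34 went the other way in the joint, with every migrated library below every steady-state library, and neither was called. Prss34 stood at 0.185, 0.0701 and 0.729 CPM in joint migrated and at 0.867, 1.25 and 2.0 CPM in joint steady-state cells.

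Histamine is broken down by HNMT and acts through receptors of the HRH family. Of 5 tested genes of histamine handling, Hnmt was called lower in migrated cells of the joint (-5.71, SE 0.62, adjusted p = 1.61e-05) and of skin (-4.53, SE 0.63, adjusted p = 0.000102). Hrh4 was called higher against steady state in the joint (2.00, SE 0.33, adjusted p = 0.000245) and in skin (3.34, SE 0.39, adjusted p = 6.43e-06). Against the steady state, 12.4% of all genes were called higher in the joint and 16.6% in skin. Of 13 genes of IgE receptor signalling, which are shared with other leukocytes, 3 were called higher and 7 lower in joint migrated cells, and 1 higher and 6 lower in skin migrated cells, each against nonmigrated cells. Of all genes, 8.80% were called higher and 12.6% lower in the joint, and 8.49% and 12.4% in skin. Among 4 tested cytokines that act on these cells, Il18 was lower in migrated cells at both sites and Il33 in skin.

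The levels of the 10 genes over the 18 libraries are compared as a description only, since the genes share each library's depth and cell mixture. Pearson's r of log2(CPM + 0.5) was 0.947 to 0.997 between any 2 of the 5 proteases, and 0.946 between Mcpt8 and Hdc. Between the proteases and Mcpt8 it was 0.403 to 0.541. Fcer1a was closest to Cpa3 (0.939) and Ms4a2 (0.923), and Ms4a2 also to Mcpt8 (0.893) and Hdc (0.892). Kit reached at most 0.796, with Fcer1a.

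**Figure D4:**
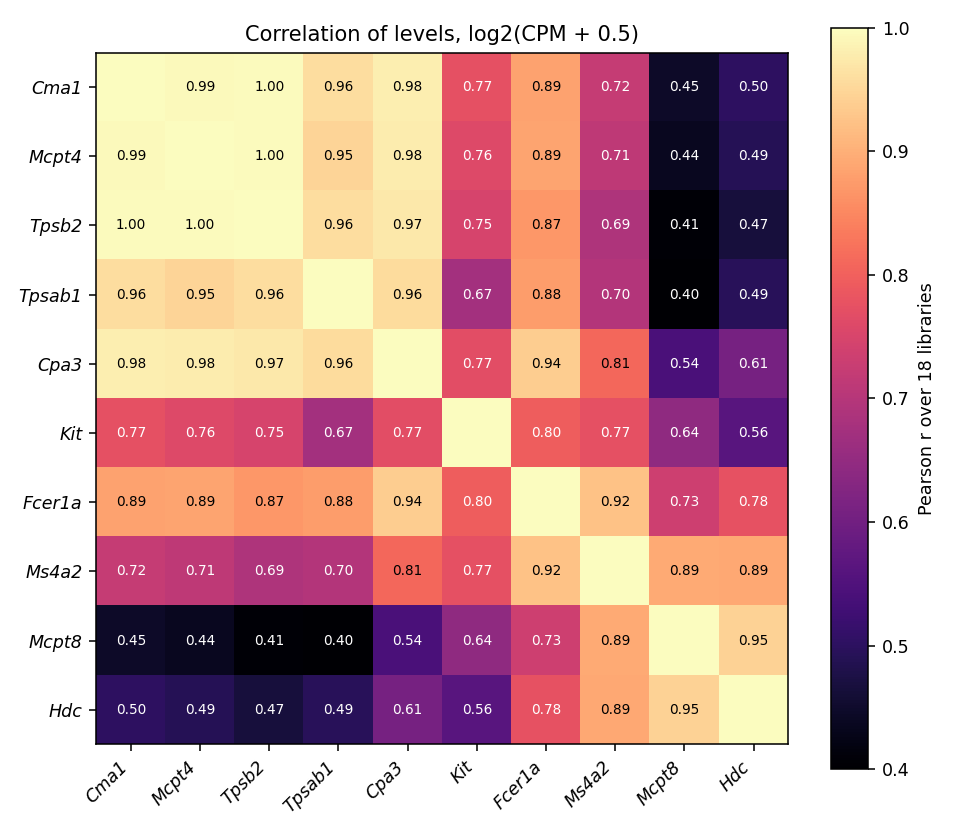
Pearson correlation of log2(CPM + 0.5) between each pair of the 10 genes over the 18 libraries, from 0.4 (dark) to 1 (light). The 5 proteases form a light block, Mcpt8 pairs with Hdc and Ms4a2, and Kit stands between the blocks.

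Among 13539 other genes with a mean of at least 1 CPM, the most alike to Mcpt4 were Tph1 (r = 0.978), the enzyme that starts serotonin synthesis in mast cells, Slc45a3 (0.964) and the mast cell receptor gene Mrgprb1 (0.953). The same 3 genes were the closest to Cma1, Tpsb2, Tpsab1 and Cpa3. Mcpt8 was most like Mirt2 (0.990), Upp1 (0.990) and the ferritin gene Fth1 (0.984), and Hdc most like Lipg (0.981), Slfn4 (0.979) and Entpd3 (0.979). Kit was most like Phactr2 (0.985), the dendritic cell integrin Itgax (0.981) and the chemokine Ccl17 (0.977). Fcer1a was most like Adgra2 (0.926), Tnc (0.922) and Fstl1 (0.917), and Ms4a2 most like ENSMUSG00000084956 (0.941), Npl (0.939) and Tal1 (0.938). The 6 dendritic cell markers summed to 946 to 2210 CPM in the migrated libraries of both sites and to 215 to 786 CPM in all others, whereas Kit was highest in nonmigrated cells, and their part in the Kit level was not tested.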

How the data were processed

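Leukocytes were measured by paired-end RNA-seq in 18 libraries, 3 pools of mice in each of 6 groups, with groups taken from the labels. Per the labels' processing notes and the study's methods, the authors used FastQC, Trim Galore and TopHat2, aligned to mm10, and deposited raw read counts per gene from HTSeq with Ensembl release 87. The table held 49585 genes, of which 49326 matched a symbol in GENCODE M21, and 5 summary rows (reads without a gene), left out of totals and tests, that held 11.3 to 15.1% of all reads. HTSeq ran under its default settings, which count by strand, and whether the library kit marked strand was not given in the sources used here. Reads that it assigned to no feature made up 0.0925 to 0.5619% of the reads of a library.

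From these counts, edgeR 4.0.16 (R 4.3.3) fitted a quasi-likelihood model after TMM scaling and filterByExpr with a minimum count of 10, once for the 12 inflamed libraries (16777 genes) and once for the 12 node libraries (17107 genes), with Benjamini-Hochberg adjustment over all genes of a fit. SEs were derived from the F statistic, as the ratio of the absolute log2 fold change to its root. Calls needed an adjusted p under 0.001 and a log2 fold change beyond 1. Levels are CPM with TMM factors over all 18 libraries. Ratios with under 4 counts in a group use an exact binomial interval, which covers counting error only. The bounds given as at least, against a group with 0 counts, use counts pooled over the libraries and do not cover the spread between pools. Member transcripts shared at most 0.6% of their 100-base windows with another gene (Ms4a2 with Ms4a4b). The functions were tested on simulated data. Replicates of a group differed beyond sampling noise (chi-square per degree of freedom 14.67 or more).

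The genes and lists were chosen with earlier results of these data known. All 10 were reported in every library. Of the lists of other mast cell, basophil and histamine genes, the called ones are named, at most the 4 of largest mean CPM per list and comparison, and the likeness search named the 3 genes of highest r. Alternatives were DESeq2 1.42.0 (Wald test, size factors), an adjusted p under 0.05, other filters, the replicate number as a block, other sets of libraries and each library left out. The inflamed-against-steady-state interaction and the ratios were added after the data were seen.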

Additional observations from a re-analysis of the deposited data

Results flagged for a closer look

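The change from steady state to inflammation in node cells differed between sites in 5 genes, by the interaction test in the fit of the 12 node libraries at an adjusted p under 0.05. They were 5 of the 9 genes tested, and 6.11% of all genes were at that level. Site cannot be told apart in this test from the kind of baseline, PBS in the joint and naive in skin. The difference, joint minus skin on the log2 scale, was 6.33 for Mcpt4, 5.87 for Tpsb2 and 4.20 for Cma1, and -6.55 for Mcpt8 and -2.92 for Hdc. For the proteases every joint migrated library was above every joint steady-state library. Mcpt8 was lower in every joint migrated library than in every joint steady-state library and higher in every skin migrated library than in every skin steady-state library. Without joint migrated replicate 1, which held the least protease RNA of its group, the adjusted p of Mcpt4 was 0.000908 and that of Tpsb2 0.000427. With each of the 12 libraries left out in turn, the highest adjusted p was 0.205 for Mcpt4, 0.111 for Tpsb2, 0.0512 for Cma1, 0.100 for Hdc and 0.00305 for Mcpt8, so that only Mcpt8 was below 0.05 in every one of these fits. Neutrophil markers were higher in the joint steady state than in the joint migrated libraries (363 to 746 against 23.0 to 60.4 CPM), beside the lower Mcpt8 and Hdc, and their part was not tested.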

How the results depend on the processing

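With an adjusted p under 0.05, DESeq2's Wald test, no count filter, the replicate block and the fit of all 18 libraries, in that order, 3, 2, 2, 2 and 2 genes were called for joint migrated against nonmigrated cells (1 in the reported fit), and 9, 9, 5, 4 and 5 for skin (2 in the reported fit). For joint against skin nonmigrated cells, with 0 in the reported fit, they were 2, 1, 1, 1 and 1. DESeq2's Wald test called 2 for joint against skin migrated cells, against 0. For joint migrated cells against steady state, where the 5 reported calls were all higher, an adjusted p under 0.05 called 8 (6 higher, and Mcpt8 and Hdc lower) and no filter 8 (7 higher, and Hdc lower), while over all genes the calls were 2714, 4143 and 3165. The fit of all 18 libraries called 1 gene for skin migrated cells against steady state and 0 between the steady states, against 2 each. Over all genes it called 3958 and 223, against 4297 and 246 in the reported fit.

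Leaving out 1 library at a time gave 1 to 2 calls for the joint, 2 to 4 for skin (4 without joint migrated replicate 1), 0 to 1 for joint against skin nonmigrated cells and 0 to 2 between the steady states. Over all genes these fits called 2537 to 4048 for the joint, 2566 to 3381 for skin and 120 to 1372 for joint against skin nonmigrated cells. Between the steady states, 83 genes were called without skin steady state replicate 1. The direction reversed for Mcpt4 in the joint comparison, which ranged from -1.35 without joint migrated replicate 3 to 0.03 without joint migrated replicate 1. Over the recomputed log2 fold changes, 440 kept both direction and side of the threshold, 58 passed it newly and 12 lost it. Of 120 recomputed mean levels, 119 moved by less than 1 SD. With plain CPM, Kit in skin steady state was 4.10 CPM instead of 3.63. Counts over all genes were 3586, 3508, 511, 0 and 20 for the joint, skin, nonmigrated cells, migrated cells and the migration interaction, in that order, and 5757, 5940, 2400, 191 and 1029 at an adjusted p under 0.05, 4694, 4668, 1550, 177 and 661 with DESeq2's Wald test, 4121, 4048, 1014, 61 and 290 with no filter and 4431, 4359, 1104, 38 and 301 in the fit of all 18 libraries. With the compared groups alone they were 2111 for skin and 0 for joint against skin nonmigrated cells.

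Whether equal replicate numbers marked paired samples is not known, and the reported fits did not pair them. The correlation of deviations from group means between same-numbered libraries was 0.023 to 0.224 for the joint and 0.071 to 0.155 for skin, and -0.169 to -0.024 between migrated and steady-state libraries. Between migrated and nonmigrated cells, 6 of 6 skin and 4 of 6 joint libraries correlated best with their own number, a hint from the data only. Between migrated and steady-state cells, 0 of 6 did so at each site. With the replicate block, 2 of the 10 genes were called in the joint, 4 in skin, 1 between nonmigrated cells, 0 between migrated cells and 0 for the migration interaction. Over all genes the block called 2826, 2750, 204, 7 and 1, in that order. In the node libraries 5, 2 and 2 were called for joint against steady state, skin against steady state and between the steady states. Over all genes these were 2202, 3572 and 163 (246 between the steady states without the block).

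Depth limits the low values: at 3 counts, a level of 0.0685 to 0.156 CPM, Mcpt8 and Fcer1a in skin steady state and Tpsab1 in skin migrated and both steady states were at or under that level in every library.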
